A study of Mus musculus with 42 samples.

Results

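Solute carriers are the family of membrane proteins, named Slc and numbered by family and member, that move sugars, amino acids, nucleosides, metals and other small solutes across the plasma membrane and across the membranes of organelles. Most work as exchangers, as cotransporters coupled to sodium or protons, or as facilitators that let a solute run down its gradient. In macrophages they are known for supplying fuels and amino acids, for handling zinc, copper, iron and haem, and for passing the products of digestion out of lysosomes. The genes described here are the 185 rows of the deposited table whose symbol starts with Slc and a digit, of 11160 genes in all. They were chosen by symbol from 189 such rows, without Slc36a1, Slc40a1, Slc11a1 and Slc7a11.

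The cells were bone marrow-derived macrophages, grown from mouse marrow with M-CSF, of an MS4A4A KO and of the WT; MS4A4A is a tetraspan-like membrane protein of macrophages. They were given 1 µM dexamethasone (Dex, a synthetic glucocorticoid that acts through the glucocorticoid receptor) for 2, 8 or 24 h, given vehicle for 2, 8 or 24 h, or left untreated as the 0 h baseline. This gives 14 groups of 3 libraries. The sources used here do not give how the KO was made, the age or number of the mice, or whether marrow was pooled. The 3 libraries of a group may therefore be technical repeats, and p-values measure no more than their spread.

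The 42 libraries held 10140211 to 33528397 expected counts each, and the 185 Slc genes took 1.01 to 1.28% of them. The deposited counts are named as already filtered. All 185 Slc genes passed the further filter on low counts, the scarcest with 496 counts over all libraries. Ms4a4a itself was at 24.2 to 802 CPM (counts scaled to library size) in KO libraries and at 67.0 to 1683 CPM in WT libraries, and was thus still counted in the KO. Within each condition every KO library was below every WT library except after 24 h of vehicle, where KO was at 53.5 to 179 CPM and WT at 142 to 213 CPM. There the 179 CPM was that of KO replicate 2, and KO replicates 1 and 3 were at 93.0 and 53.5 CPM. Macrophage markers were abundant, with a summed level of 17588 to 42011 CPM in Dex, 20194 to 39495 CPM in vehicle and 21076 to 25956 CPM in untreated libraries. Of 6 stromal markers 3 were in the table (Col1a1, Col1a2, Col3a1), with a sum of 7.67 to 39.7 CPM after 24 h of Dex and 4.55 to 13.6 CPM after 24 h of vehicle. Of 4 dendritic cell markers 2 were in the table (Flt3, Zbtb46), with a sum of 4.53 to 6.26 CPM after 8 h of Dex and 0.320 to 1.27 CPM after 8 h of vehicle. Over all times, Flt3 was at 0.230 to 5.37 CPM in Dex and 0 to 0.418 CPM in vehicle libraries. Zbtb46 overlapped, at 0.307 to 1.37 CPM in Dex and 0.284 to 1.10 CPM in vehicle libraries. Of 6 neutrophil markers 3 were in the table. Their sum was 9.48 to 44.7 CPM in Dex, 12.5 to 49.6 CPM in vehicle and 19.4 to 63.6 CPM in untreated libraries. Of 6 T and NK cell markers 1 was in the table (Cd4). It was at 1.68 to 21.2 CPM in Dex, 6.92 to 20.7 CPM in vehicle and 8.64 to 23.3 CPM in untreated libraries. Markers of B cells, mast cells and erythroid cells are not in the table. The part of these cells in the results was not tested. A single library stood apart, KO vehicle 24 h replicate 2, where the glucocorticoid target Fkbp5 was at 69.9 CPM against 10.9 to 21.3 CPM in the other 23 libraries without Dex; the count of Slc genes called at 24 h is 114 with it and 115 without it. In bulk RNA, fewer cells of a type and less RNA per cell cannot be told apart.

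Levels can be compared between genes only per length, here as CPM per kb of merged exons, averaged over the 14 groups. On that scale the most abundant Slc gene was Slc25a5, the mitochondrial ADP/ATP carrier, at 217 CPM per kb, but 49.4% of its transcript sequence also occurs in transcripts of other genes. Next came Slc48a1, which brings haem out of phagolysosomes, at 138, Slc3a2, the heavy chain that carries several amino acid exchangers to the surface, at 109, the scaffold Slc9a3r1 at 106, and Slc37a2, a sugar phosphate exchanger, at 104 CPM per kb. By class, the 36 mitochondrial carriers summed to 670.8, the 25 metal carriers to 454 and the 23 amino acid and amine carriers to 426 CPM per kb, while the 8 sugar and polyol carriers summed to 54.3 CPM per kb.

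**Figure D1:**
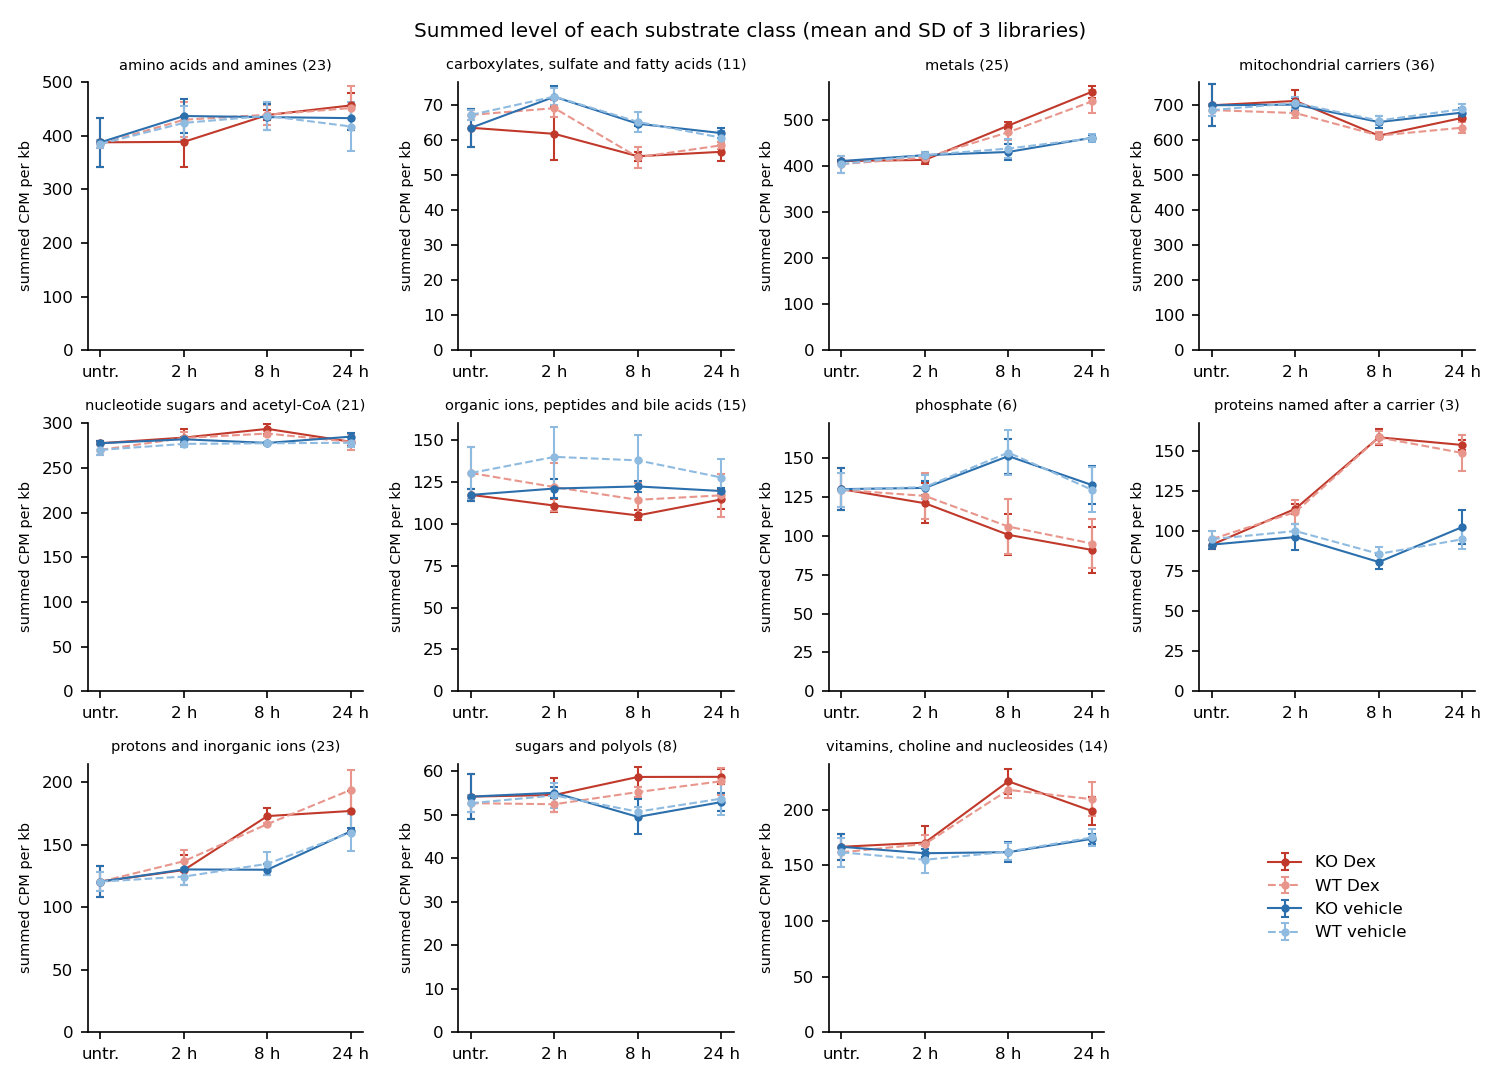
Summed level of each substrate class, in CPM per kb of merged exons (vertical axis, from 0), in untreated cells and at 2, 8 and 24 h (horizontal axis), for KO Dex, WT Dex, KO vehicle and WT vehicle; points are means and whiskers SDs of 3 libraries, and the number of genes is in brackets. After 24 h the metal class reached 562 in KO Dex and 541 in WT Dex, against 462 in KO vehicle and 461 in WT vehicle. A sum follows its abundant members. At 24 h more metal genes were called lower than higher, while Slc31a1 rose by 1.41 in KO and 1.59 in WT on the log2 scale.

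Promoters of 4 genes are shown. Slc28a2 and Slc31a1 had the largest rises after 24 h of Dex among the Slc genes of at least 5 CPM. Slc30a1 had the largest fall at 2 h. Slc35f5 was 1 of 13 Slc genes higher at all 3 times, without the largest rise among them. The windows run from 250 bases before to 50 bases after the annotated start, 5′ to 3′ on the gene's strand, from RefSeq on GRCm38.p6, where 142 of the 185 genes have an entry.
Slc28a2, chr2:122426185-122426484, plus strand: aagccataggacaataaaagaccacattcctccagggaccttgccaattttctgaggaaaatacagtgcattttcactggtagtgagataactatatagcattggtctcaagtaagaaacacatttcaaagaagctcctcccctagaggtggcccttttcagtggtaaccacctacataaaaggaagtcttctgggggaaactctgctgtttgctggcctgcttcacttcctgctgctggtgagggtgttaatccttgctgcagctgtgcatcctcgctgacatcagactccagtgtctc
Slc31a1, chr4:62360451-62360750, plus strand: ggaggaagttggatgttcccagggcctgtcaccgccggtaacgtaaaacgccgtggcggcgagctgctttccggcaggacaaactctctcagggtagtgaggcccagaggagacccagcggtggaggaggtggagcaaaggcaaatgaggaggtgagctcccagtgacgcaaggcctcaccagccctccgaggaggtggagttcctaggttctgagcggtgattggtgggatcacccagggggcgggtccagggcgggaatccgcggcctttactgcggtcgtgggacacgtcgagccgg
Slc35f5, chr1:125560345-125560644, plus strand: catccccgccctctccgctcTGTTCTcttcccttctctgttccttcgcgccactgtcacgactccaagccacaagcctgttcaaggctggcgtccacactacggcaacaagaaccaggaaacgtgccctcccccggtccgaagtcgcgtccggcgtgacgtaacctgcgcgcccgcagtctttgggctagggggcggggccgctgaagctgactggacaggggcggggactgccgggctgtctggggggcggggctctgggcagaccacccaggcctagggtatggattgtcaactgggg
Slc30a1, chr1:191906531-191906830, plus strand: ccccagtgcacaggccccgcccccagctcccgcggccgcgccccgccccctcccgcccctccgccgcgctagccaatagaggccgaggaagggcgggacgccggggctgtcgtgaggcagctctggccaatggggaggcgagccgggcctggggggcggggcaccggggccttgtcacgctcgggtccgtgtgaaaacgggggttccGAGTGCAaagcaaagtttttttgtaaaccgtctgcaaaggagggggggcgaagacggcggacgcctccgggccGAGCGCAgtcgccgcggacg
The Slc35f5 window shown is the first of 2 for that gene. Its capitals mark a match to the glucocorticoid receptor hexamer AGAACA on the opposite strand, 230 bases before the start. This hexamer had 0 matches in the second Slc35f5 window and in those of Slc28a2 and Slc31a1. In the Slc30a1 window, capitals mark 2 matches to the metal response element core TGCNCNC on the opposite strand, 43 bases before and 31 bases after the start; 20.2% of all 32851 windows hold as many. Both strands were searched. The receptor palindrome, which is AGAACA, any 3 bases and TGTTC, was in 0.0487% of all windows and in 0 of the 142 Slc genes. The hexamer was in 19.0% of all windows and in 17 of 142 Slc genes (12.0%), among them 6 of 48 that rose and 7 of 44 that fell at 8 h. The core TGCNCNC was in 51.0% of all windows and in 89 of 142 Slc genes (62.7%). An Slc gene counts here if any of its windows matched, and some have more than 1. Shares of genes and shares of windows are therefore not directly comparable. These matches describe letters in short windows and say nothing of binding.

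Whether Dex changed the Slc genes was tested against vehicle of the same time, averaged over KO and WT, and a gene is called where its adjusted p was under 0.05 (edgeR quasi-likelihood test, Benjamini-Hochberg over all 11160 genes). After 2 h, 34 of 185 Slc genes were called, 17 higher and 17 lower with Dex (18.4%, against 14.5% of all genes, 8.14% higher and 6.41% lower). After 8 h, 114 were called, 55 higher and 59 lower (61.6%, against 52.2% of all genes, 27.5% higher and 24.7% lower). After 24 h, 114 were called again, 46 higher and 68 lower (61.6%, against 53.6% of all genes, 26.8% in each direction); the lower ones were 36.8% of Slc genes and 26.8% of all genes. The median log2 change of the Slc genes was -0.0244, -0.0369 and -0.0297 at 2, 8 and 24 h, and that of all genes was -0.00471, 0.0117 and 0.00759. Changes over 2-fold were called for 1, 21 and 20 Slc genes at 2, 8 and 24 h, while 2.22, 7.71 and 9.83% of all genes were called over 2-fold at those times. All 6 Dex libraries lay on one side of all 6 vehicle libraries for 22, 90 and 70 Slc genes at 2, 8 and 24 h (11.9, 48.6 and 37.8%), and the same held for 8.97, 37.2 and 28.7% of all genes. In all, 152 of the 185 genes were called at 1 time or more (82.2%, against 71.6% of all genes). At all 3 times 13 were higher (7.03%, against 5.46% of all genes) and 8 were lower (4.32%, against 3.26% of all genes).

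**Figure D2:**
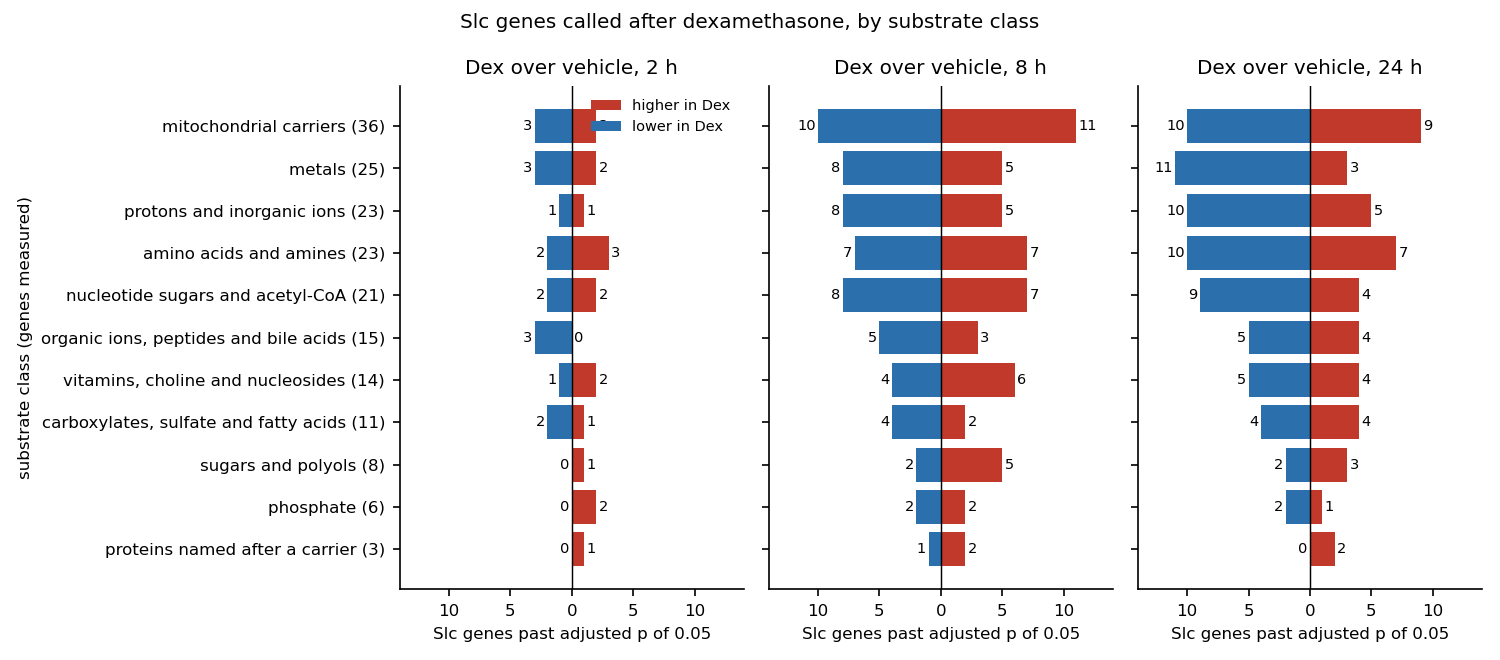
Number of Slc genes called higher (red, right) or lower (blue, left) with Dex than with vehicle at 2, 8 and 24 h (panels), by substrate class, with the number of genes measured in brackets. Sugar and polyol carriers had 5 higher and 2 lower at 8 h, and metal carriers 3 higher and 11 lower at 24 h.

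Below, the level of a gene over the 6 libraries of a condition (KO and WT) is given as its lowest, median and highest CPM, and a change as log2 of Dex over vehicle ± its standard error. Counts by class describe 3 to 36 genes each and were not tested; of all genes, 27.5% were higher and 24.7% lower at 8 h, and 26.8% in each direction at 24 h. Among the 14 carriers of vitamins, choline and nucleosides, 6 were higher and 4 lower at 8 h, and 4 higher and 5 lower at 24 h. Slc28a2, a sodium-coupled nucleoside transporter that prefers purines, rose the most of them. It was at 204, 229.8 and 262 CPM after 8 h of Dex and at 35.4, 43.3 and 51.8 CPM after 8 h of vehicle. All 6 Dex libraries were above all 6 vehicle libraries, and the change was 2.43 ± 0.11 (adjusted p = 9.65e-19), with 0.78 ± 0.11 at 2 h and 1.69 ± 0.11 at 24 h. Of its transcript sequence 46.3% also occurs in its neighbour Gm14085 (named Slc28a2b in RefSeq), so reads of the pair could not be fully separated; Gm14085, at a mean of 1.99 CPM, changed by 2.09 ± 0.27 at 8 h in the same direction. The bidirectional nucleoside transporter Slc29a1 rose at all 3 times, by 0.71 ± 0.04 at 8 h, while Slc29a3, its lysosomal relative, was called lower at 8 h (-0.35 ± 0.11).

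Slc43a3, a purine nucleobase transporter, turned round between 8 and 24 h. It was at 34.2, 37.0 and 38.7 CPM after 8 h of Dex against 15.0, 18.9 and 21.4 CPM after 8 h of vehicle, and at 6.75, 8.12 and 10.5 CPM after 24 h of Dex against 12.6, 14.7 and 18.4 CPM after 24 h of vehicle. The groups did not overlap at either time, the changes were 0.98 ± 0.08 and -0.88 ± 0.08, and the difference between them was -1.86 ± 0.11 (adjusted p = 7.67e-14). Choline transporter-like Slc44a2 also changed sign, with 0.23 ± 0.08 at 8 h and -0.43 ± 0.08 at 24 h. Among vitamin carriers, the ascorbate transporter Slc23a2 was lower at all 3 times, with 94.8, 96.9 and 113 CPM in Dex and 167, 178 and 192 CPM in vehicle at 8 h, without overlap. The folate and haem carrier Slc46a1 fell by 0.76 ± 0.09 at 8 h on the log2 scale and the lysosomal carrier Slc46a3 rose by 0.66 ± 0.06 at 24 h.

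Of the 25 metal carriers, 5 were higher and 8 lower at 8 h, and 3 were higher and 11 lower at 24 h, with a class median of -0.08 and -0.14 on the log2 scale. Both copper carriers rose. Slc31a1, which imports copper at the cell surface, was at 564, 591 and 580.3 CPM in KO and 625, 582 and 661 CPM in WT after 24 h of Dex, against 201, 259 and 195 CPM in KO and 207, 189.8 and 222 CPM in WT after 24 h of vehicle. Every Dex library was above every vehicle library, and the change was 1.50 ± 0.06 at 24 h, after 1.31 ± 0.06 at 8 h and an uncalled 0.12 ± 0.06 at 2 h. The highest vehicle value, 259 CPM, belongs to the library that stood apart. Slc31a2, which lies near Slc31a1 on chromosome 4 and lets copper out of endosomes, rose by 1.01 ± 0.06 at 8 h and 0.68 ± 0.06 at 24 h.

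More zinc carriers were lower than higher. Of 12 members of the Slc39 family, which bring zinc into the cytosol, 1 was higher and 3 were lower at 8 h, and 6 were lower at 24 h. Slc39a6 was at 41.1, 44.1 and 49.2 CPM after 8 h of Dex and 90.4, 95.6 and 106 CPM after 8 h of vehicle, a change of -1.11 ± 0.06 (adjusted p = 2.36e-16). Its relative Slc39a10 was at 30.3, 34.1 and 37.5 CPM after 8 h of Dex and 66.8, 71.2 and 77.6 CPM after 8 h of vehicle. Neither gene overlapped between groups, both stayed called at 24 h with -1.20 ± 0.06 and -0.89 ± 0.09, and neither was called at 2 h. The Slc39 gene that was higher at 8 h was the scarce Slc39a12, at 3.80, 5.01 and 7.61 CPM in Dex and 0.453, 0.784 and 0.947 CPM in vehicle.

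Slc30a1, the zinc exporter of the plasma membrane, was called lower at each time, with changes of -0.68 ± 0.09, -0.77 ± 0.09 and -0.70 ± 0.09 at 2, 8 and 24 h. At 2 h it was at 24.4, 31.8 and 38.0 CPM in Dex and 44.3, 47.6 and 55.7 CPM in vehicle. In vehicle it was higher than in untreated cells by 0.62 ± 0.09 at 2 h, where untreated cells were at 27.7, 30.6 and 44.0 CPM and the change by Dex was of the opposite sign. Slc30a5, which loads zinc into the secretory pathway, was lower at 8 and 24 h (-0.40 ± 0.05 at 8 h), and Slc30a7, with the same role, was higher (0.30 ± 0.05). Slc11a2, the proton-coupled iron importer of the plasma membrane and endosomes, fell at all 3 times and was at 30.1, 34.5 and 35.5 CPM in Dex and 67.0, 70.9 and 72.0 CPM in vehicle at 8 h. Slc48a1, the haem carrier, was lower at 8 h (-0.29 ± 0.06) and not called at 24 h (0.09 ± 0.06).

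Among the 23 carriers of amino acids and amines, 7 were higher and 7 lower at 8 h, and 7 higher and 10 lower at 24 h. Slc43a2, a facilitator of branched-chain and aromatic amino acids, rose at every time. It was at 1135, 1196 and 1279 CPM after 8 h of Dex and 541, 593 and 735 CPM after 8 h of vehicle, without overlap, a change of 0.98 ± 0.10 (adjusted p = 8.65e-10). Slc7a5, the surface exchanger for the same large neutral amino acids, went the other way. It was at 1.07, 1.31 and 0.964 CPM in KO and 1.61, 2.45 and 1.87 CPM in WT after 24 h of Dex, against 4.26, 3.46 and 4.09 CPM in KO and 7.30, 5.14 and 2.64 CPM in WT after 24 h of vehicle. The groups did not overlap at 24 h, where the change was -1.59 ± 0.19; it was -0.69 ± 0.18 at 8 h and, not called, -0.14 ± 0.16 at 2 h.

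The heavy chain Slc3a2, which pairs with Slc7a5, Slc7a6, Slc7a7 and Slc7a8, was lower at 2 h (-0.31 ± 0.05) and slightly higher at 24 h (0.15 ± 0.05). At 8 h it missed the threshold (-0.12 ± 0.05, adjusted p = 0.0545), but passed it with DESeq2 (adjusted p = 0.0224) and once replicate number was blocked (adjusted p = 0.0152). Of the light chains, Slc7a6 fell by 0.22 ± 0.10 at 24 h on the log2 scale, Slc7a7, an exporter of cationic amino acids, was higher at 24 h by 0.37 ± 0.08, and Slc7a8 was called at no time, with -0.28 ± 0.16 at 8 h, where the block gave an adjusted p of 0.0235 and a fit of only the compared libraries one of 0.000484.

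The cationic amino acid transporters split. Slc7a1, the general arginine importer, was at 2.83, 3.67 and 4.01 CPM after 24 h of Dex and 5.97, 9.68 and 12.4 CPM after 24 h of vehicle, a change of -1.42 ± 0.15. Slc7a2, the form that activated macrophages are known to induce, was at 4.98, 6.84 and 8.80 CPM after 8 h of Dex and 1.67, 2.74 and 3.66 CPM after 8 h of vehicle, a change of 1.32 ± 0.21. Neither pair of groups overlapped. The taurine transporter Slc6a6 fell at 8 h (-0.60 ± 0.09) and 24 h (-0.40 ± 0.09), as did the creatine transporter Slc6a8, the aromatic amino acid facilitator Slc16a10, which fell at 2 h too, and the neutral amino acid importer Slc38a1. The glutamine importers Slc1a5 and Slc38a2 were called lower at 24 h and at no earlier time, with changes of -0.48 ± 0.09 and -0.59 ± 0.10, while Slc38a9, the lysosomal arginine sensor, rose by 0.39 ± 0.05 at 8 h.

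Of the 8 sugar and polyol carriers, 5 were higher and 2 lower at 8 h, when 27.5% of all genes were higher and 24.7% lower. The glucose facilitators split by member. Slc2a3 was at 16.8, 17.1 and 19.1 CPM after 8 h of Dex and 7.17, 7.99 and 9.55 CPM after 8 h of vehicle, a rise of 1.13 ± 0.10 (adjusted p = 5.41e-12). Slc2a1 was at 25.0, 26.9 and 31.3 CPM in Dex and 32.9, 37.0 and 38.3 CPM in vehicle, a change of -0.42 ± 0.07. Per kb, in WT cells after 8 h, Slc2a1 was at 7.53 in Dex and 10.3 in vehicle, and Slc2a3 at 2.53 in Dex and 1.13 CPM per kb in vehicle. Slc2a6, a glucose transporter family member of lysosomes, fell by 1.03 ± 0.12 on the log2 scale at 24 h. The inositol importer Slc5a3 was higher at 2 h (0.62 ± 0.13) and not called at 24 h (0.07 ± 0.14), and the sugar carrier Slc45a4 was higher at 8 and 24 h.

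Of the 11 carriers of carboxylates, sulfate and fatty acids, 2 were higher and 4 lower at 8 h, and 4 higher and 4 lower at 24 h. Slc16a9, a carnitine and creatine carrier of the monocarboxylate family, was the only Slc gene called over 2-fold at 2 h. It was at 10.9, 12.1 and 15.1 CPM after 2 h of Dex and 4.26, 5.62 and 7.01 CPM after 2 h of vehicle, without overlap, a change of 1.18 ± 0.11 (adjusted p = 7.96e-11). The change was 1.20 ± 0.11 at 8 h and 0.84 ± 0.10 at 24 h, on a vehicle level that itself had risen by 1.29 ± 0.11 over untreated at 24 h. For Slc16a9, 20.9% of the transcript sequence also occurs in other genes, 11.4% in Gm7097. The lactate carriers differed by member. Slc16a3, the lactate exporter of glycolytic cells, was lower at all 3 times (-0.48 ± 0.08 at 8 h), and Slc16a1 at 8 and 24 h (-0.39 ± 0.08 at 8 h). Slc16a7, a further lactate and pyruvate carrier, was higher at 24 h (0.20 ± 0.05) and called at neither earlier time. Slc16a6, which exports ketone bodies in liver, was lower at 2 h (-0.52 ± 0.08) and higher at 24 h (0.28 ± 0.08). Of its transcript sequence 20.9% also occurs in Amz2, which was not called at 2 h (-0.0035 ± 0.06) and was higher at 24 h by 0.30 ± 0.06, so reads of the pair could not be fully separated. The fatty acid carrier Slc27a1 was lower at 8 and 24 h.

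The class of 36 mitochondrial carriers was set by family and holds the Slc25 genes, whatever the place or role of a member. Of these genes, 11 were higher and 10 lower at 8 h, and 9 higher and 10 lower at 24 h. The 2 aspartate-glutamate exchangers of the malate-aspartate shuttle moved apart. Slc25a12 was at 57.1, 69.6 and 74.6 CPM after 8 h of Dex and 32.7, 35.0 and 36.5 CPM after 8 h of vehicle, a change of 0.94 ± 0.07. Slc25a13 was at 26.4, 28.4 and 31.2 CPM after 24 h of Dex and 53.2, 60.4 and 64.8 CPM after 24 h of vehicle, a change of -1.07 ± 0.06. The groups did not overlap in either case. Slc25a25, a calcium-regulated carrier of ATP-Mg and phosphate, was at 4.55, 5.46 and 6.54 CPM in Dex and 13.6, 14.7 and 16.5 CPM in vehicle at 8 h, a change of -1.38 ± 0.10. Slc25a30, an uncoupling protein relative, was higher at all 3 times, with 1.27 ± 0.09 at 8 h.

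The carriers of ADP, ATP and phosphate had small changes. At 8 h Slc25a5 changed by -0.17 ± 0.05 and the phosphate carrier Slc25a3 by -0.20 ± 0.06, and neither was called at 24 h, while the other ADP/ATP carrier, Slc25a4, was called at 24 h with -0.23 ± 0.05. The citrate carrier Slc25a1 was lower at 8 and 24 h (-0.37 ± 0.05 at 8 h). The acylcarnitine carrier Slc25a20 was called at no time, with -0.10 ± 0.06 at 8 h. Mitoferrin-1, Slc25a37, which brings iron into mitochondria, was lower at 8 h (-0.28 ± 0.09) and higher at 24 h (0.35 ± 0.08).

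The 23 carriers of protons and inorganic ions had 5 higher and 8 lower at 8 h, and 5 higher and 10 lower at 24 h. Slc8b1, the mitochondrial sodium-calcium exchanger, was at 133, 158 and 165 CPM after 8 h of Dex and 55.0, 59.4 and 72.8 CPM after 8 h of vehicle, a change of 1.34 ± 0.09 (adjusted p = 1.43e-14), and it was higher at 2 and 24 h too. Slc24a3, a potassium-dependent sodium-calcium exchanger, reversed. It was at 9.18, 11.6 and 13.1 CPM after 8 h of Dex against 5.36, 5.74 and 6.61 CPM in vehicle, and at 2.12, 3.51 and 4.63 CPM after 24 h of Dex against 7.74, 8.85 and 12.2 CPM in vehicle, without overlap at either time. The difference between the effects at 24 and 8 h was -2.38 ± 0.19 (adjusted p = 1.69e-11). Slc24a5, the exchanger of melanosomes, was lower at 8 and 24 h (-1.27 ± 0.15 at 8 h), but 40.2% of its transcript sequence also occurs in other genes, mostly its neighbour Myef2, which fell by 0.42 ± 0.10 on the log2 scale at 8 h.

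Sodium-proton exchangers of the Slc9 family differed by member. Slc9a7, of the Golgi and endosomes, fell by 1.01 ± 0.12 on the log2 scale at 24 h, and Slc9a9, of late endosomes, was higher by 0.42 ± 0.08 at 24 h, on a vehicle level that had risen by 1.02 ± 0.08 over untreated. The lysosomal sulfate carrier Slc26a11 was higher at 8 and 24 h (0.75 ± 0.06 at 8 h), the chloride-bicarbonate exchanger Slc4a2 and the sodium-bicarbonate cotransporter Slc4a7 were lower at both times, and Slc12a9, a cation-chloride cotransporter relative, was higher at both.

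The class of 21 carriers of nucleotide sugars and acetyl-CoA was set by family. Its nucleotide sugar carriers feed glycosylation in the Golgi and endoplasmic reticulum, but it also holds orphan and lysosomal members. The changes of the class spanned a narrow range. At 8 h 7 were higher and 8 lower, the 21 changes lay between -0.81 and 0.46 on the log2 scale, and at 24 h 4 were higher and 9 lower. Slc35f5, an orphan member, rose at all 3 times and was at 147, 159 and 166 CPM after 2 h of Dex and 115, 120.3 and 125 CPM after 2 h of vehicle. Slc35f6, a lysosomal member, was lower at all 3 times, with 117, 132 and 148 CPM in Dex and 202, 211 and 223 CPM in vehicle at 2 h. The change of Slc35f6 was -0.67 ± 0.05 at 2 h and shrank to -0.12 ± 0.05 at 24 h. Slc35c1, the GDP-fucose carrier, was higher at 8 and 24 h (0.30 ± 0.08 at 8 h), and Slc35a3, the UDP-N-acetylglucosamine carrier, was lower (-0.25 ± 0.06 at 8 h).

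Of the genes here, 6 carry phosphate or sugar phosphates. Slc37a2, the most abundant, was at 436, 572 and 644 CPM after 8 h of Dex and 784, 905 and 965 CPM after 8 h of vehicle, a change of -0.68 ± 0.11. Slc37a4, which brings glucose 6-phosphate into the endoplasmic reticulum, rose at all 3 times (0.58 ± 0.05 at 8 h). Slc20a1, the sodium-phosphate cotransporter, was higher at 2 h (0.24 ± 0.07) and lower at 8 h (-0.57 ± 0.07) and 24 h (-0.50 ± 0.07).

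Of the 15 carriers of organic ions, peptides and bile acids, 3 were higher and 5 lower at 8 h, and 4 higher and 5 lower at 24 h. Slc15a3, the lysosomal carrier of histidine and bacterial peptides that inflammatory signals induce in macrophages, fell the most. It was at 28.0, 26.4 and 22.1 CPM in KO and 27.6, 28.2 and 26.2 CPM in WT after 8 h of Dex, against 71.7, 71.6 and 63.6 CPM in KO and 70.8, 80.4 and 63.0 CPM in WT after 8 h of vehicle. The groups did not overlap at 8 h, with a change of -1.41 ± 0.09 (adjusted p = 1.86e-15), which was -0.36 ± 0.08 at 2 h and -0.67 ± 0.09 at 24 h. Of its transcript sequence 27.6% also occurs in other genes, nearly all in its neighbour Tmem132a, which fell by 1.65 ± 0.11 on the log2 scale at 8 h. Its relative Slc15a4 was called at no time, with -0.16 ± 0.08 at 8 h (chosen after its values were seen). Slc17a5, the lysosomal sialic acid exporter, was lower at 2 h (-0.17 ± 0.06) and higher at 8 h (0.21 ± 0.06) and 24 h (0.19 ± 0.06), and the vesicular amine transporter Slc18a1 fell by 0.91 ± 0.13 on the log2 scale at 24 h.

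A further 3 proteins bear an Slc name without carrying a solute themselves. Slc9a3r1, a scaffold that anchors exchangers to the cytoskeleton, was at 283, 290.4 and 301 CPM after 8 h of Dex and 136, 146 and 160.4 CPM after 8 h of vehicle, a change of 0.99 ± 0.05, and it was higher at all 3 times. Slc4a1ap changed by 0.13 ± 0.05 and Slc7a6os by -0.19 ± 0.06 at 8 h. How the counting used strand is not stated in the sources. Searched on both strands, 1.78% of the Slc7a6os transcript sequence also occurs in other genes, so reads could be shared over that part.

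**Figure D3:**
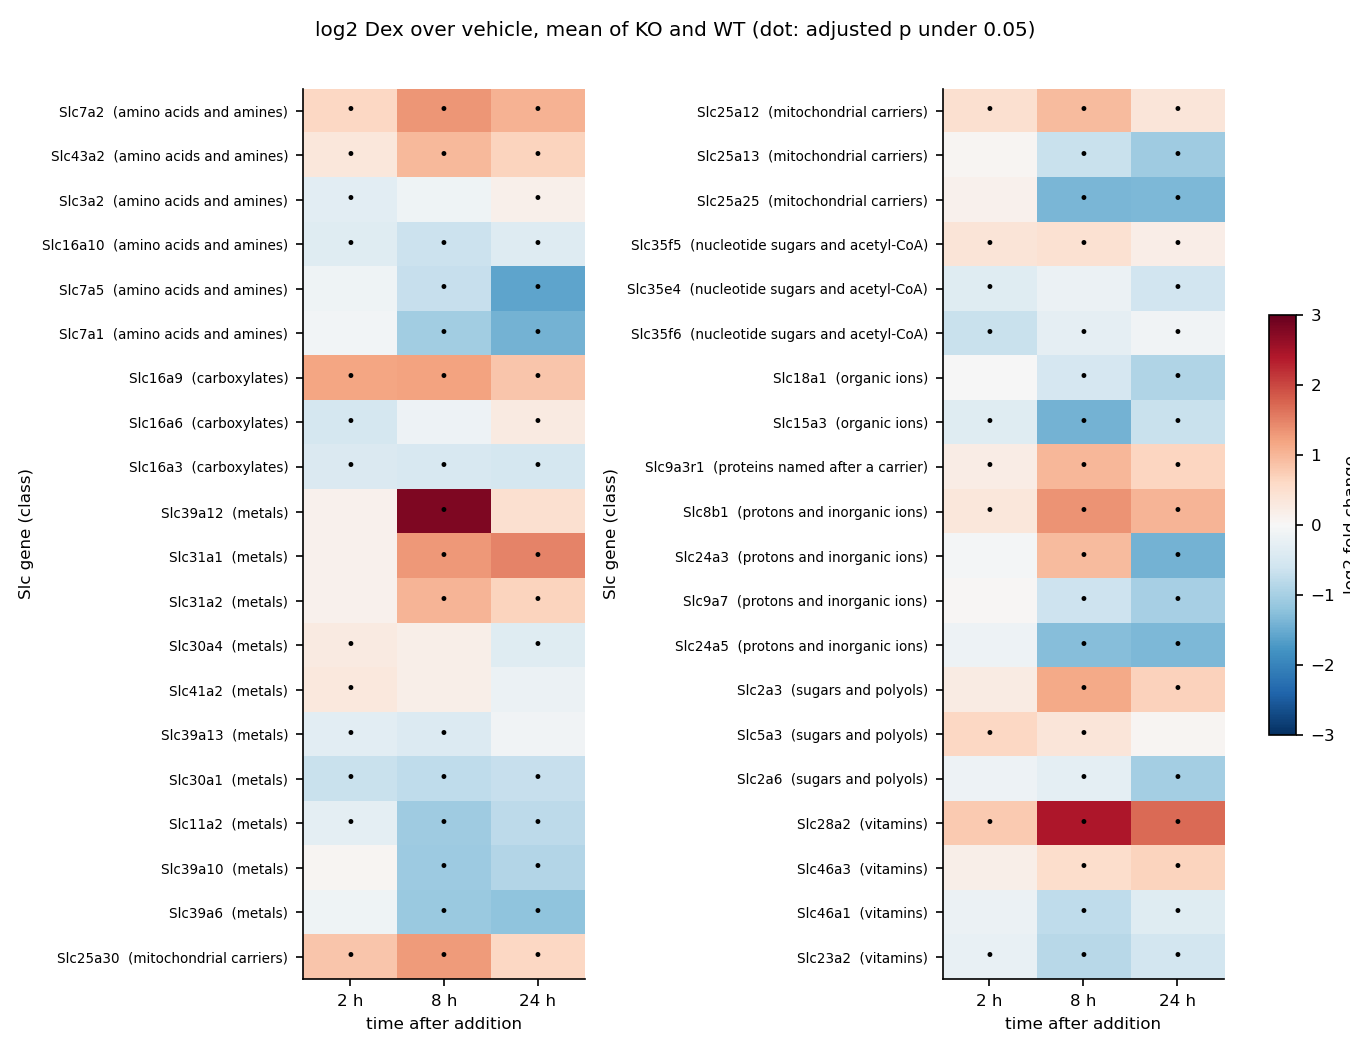
Log2 change, Dex over vehicle (mean of KO and WT), at 2, 8 and 24 h (columns) for Slc genes with the highest or lowest called changes at any time among those of at least 5 CPM (rows, ordered by class and by the change at 8 h); red is higher with Dex, blue lower, and a dot marks an adjusted p under 0.05. Slc28a2 is red at all 3 times, Slc30a1 blue at all 3, and Slc24a3 red at 8 h and blue at 24 h.

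A few Slc genes under 5 CPM had some of the largest fold changes and are named here after their values were seen. Slc6a12, a betaine and GABA carrier, had 250 counts in the 6 Dex libraries of 8 h and 10 counts in the 6 vehicle libraries of 8 h, of which 2 were at 0. Slc16a14, an orphan of the monocarboxylate family, had 298 counts in the 6 Dex libraries of 24 h and 16 in the 6 vehicle libraries of 24 h, with 1 at 0. Both were called at 8 and 24 h. The sum of the 3 stromal markers was 1.57 to 11.7 CPM in Dex and 2.40 to 8.49 CPM in vehicle at 8 h, and 7.67 to 39.7 CPM in Dex and 4.55 to 13.6 CPM in vehicle at 24 h. The sum of the 2 dendritic cell markers was 4.53 to 6.26 CPM in Dex and 0.320 to 1.27 CPM in vehicle at 8 h, and 2.17 to 3.94 CPM in Dex and 0.601 to 1.10 CPM in vehicle at 24 h, without overlap at either time. The rise of this sum lay mostly in Flt3, since Zbtb46 was at 0.307 to 1.37 CPM in all Dex and 0.284 to 1.10 CPM in all vehicle libraries. The part of stromal and dendritic cells in these changes and in that of Slc39a12 was not tested. Slc9b2, a sodium-proton exchanger relative, went down, with 41 counts in the 6 Dex libraries of 24 h and 295 in the 6 vehicle libraries.

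The timing differed between genes. Of the 185, 79 were called at both 8 and 24 h (42.7%, against 35.8% of all genes), 35 at 8 h but not at 24 h (18.9%, against 16.5%), and 35 at 24 h but not at 8 h (18.9%, against 17.9%). Between 2 and 8 h the Dex effect itself changed for 75 genes, 42 up and 33 down (40.5%, against 31% of all genes, 16.9% up and 14.1% down), and between 8 and 24 h for 55 genes, 20 up and 35 down (29.7%, against 25.9% of all genes, 9.92% up and 16% down). Between 8 and 24 h, among the Slc genes called in that comparison and of at least 5 CPM on average over the libraries, the effect went up most for Slc15a3 (0.74 ± 0.12), Slc25a37 (0.63 ± 0.12) and Slc16a6 (0.43 ± 0.11), and down most for Slc24a3, Slc43a3 and Slc7a5 (-0.90 ± 0.265). There were 9 genes called in opposite directions at different times (4.86%, against 3.44% of all genes): Slc16a6, Slc17a5, Slc20a1, Slc24a3, Slc25a37, Slc30a4, Slc3a2, Slc43a3 and Slc44a2. When each compared library was left out in turn, both calls were kept in every fit for 4 of them, Slc16a6, Slc24a3, Slc25a37 and Slc43a3. A call was lost in some fits for the other five: the one at 2 h was kept in 4 of 12 fits for Slc17a5 and Slc30a4 and in 10 for Slc20a1, that of Slc3a2 at 24 h in 7, and that of Slc44a2 at 8 h in 8.

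**Figure D4:**
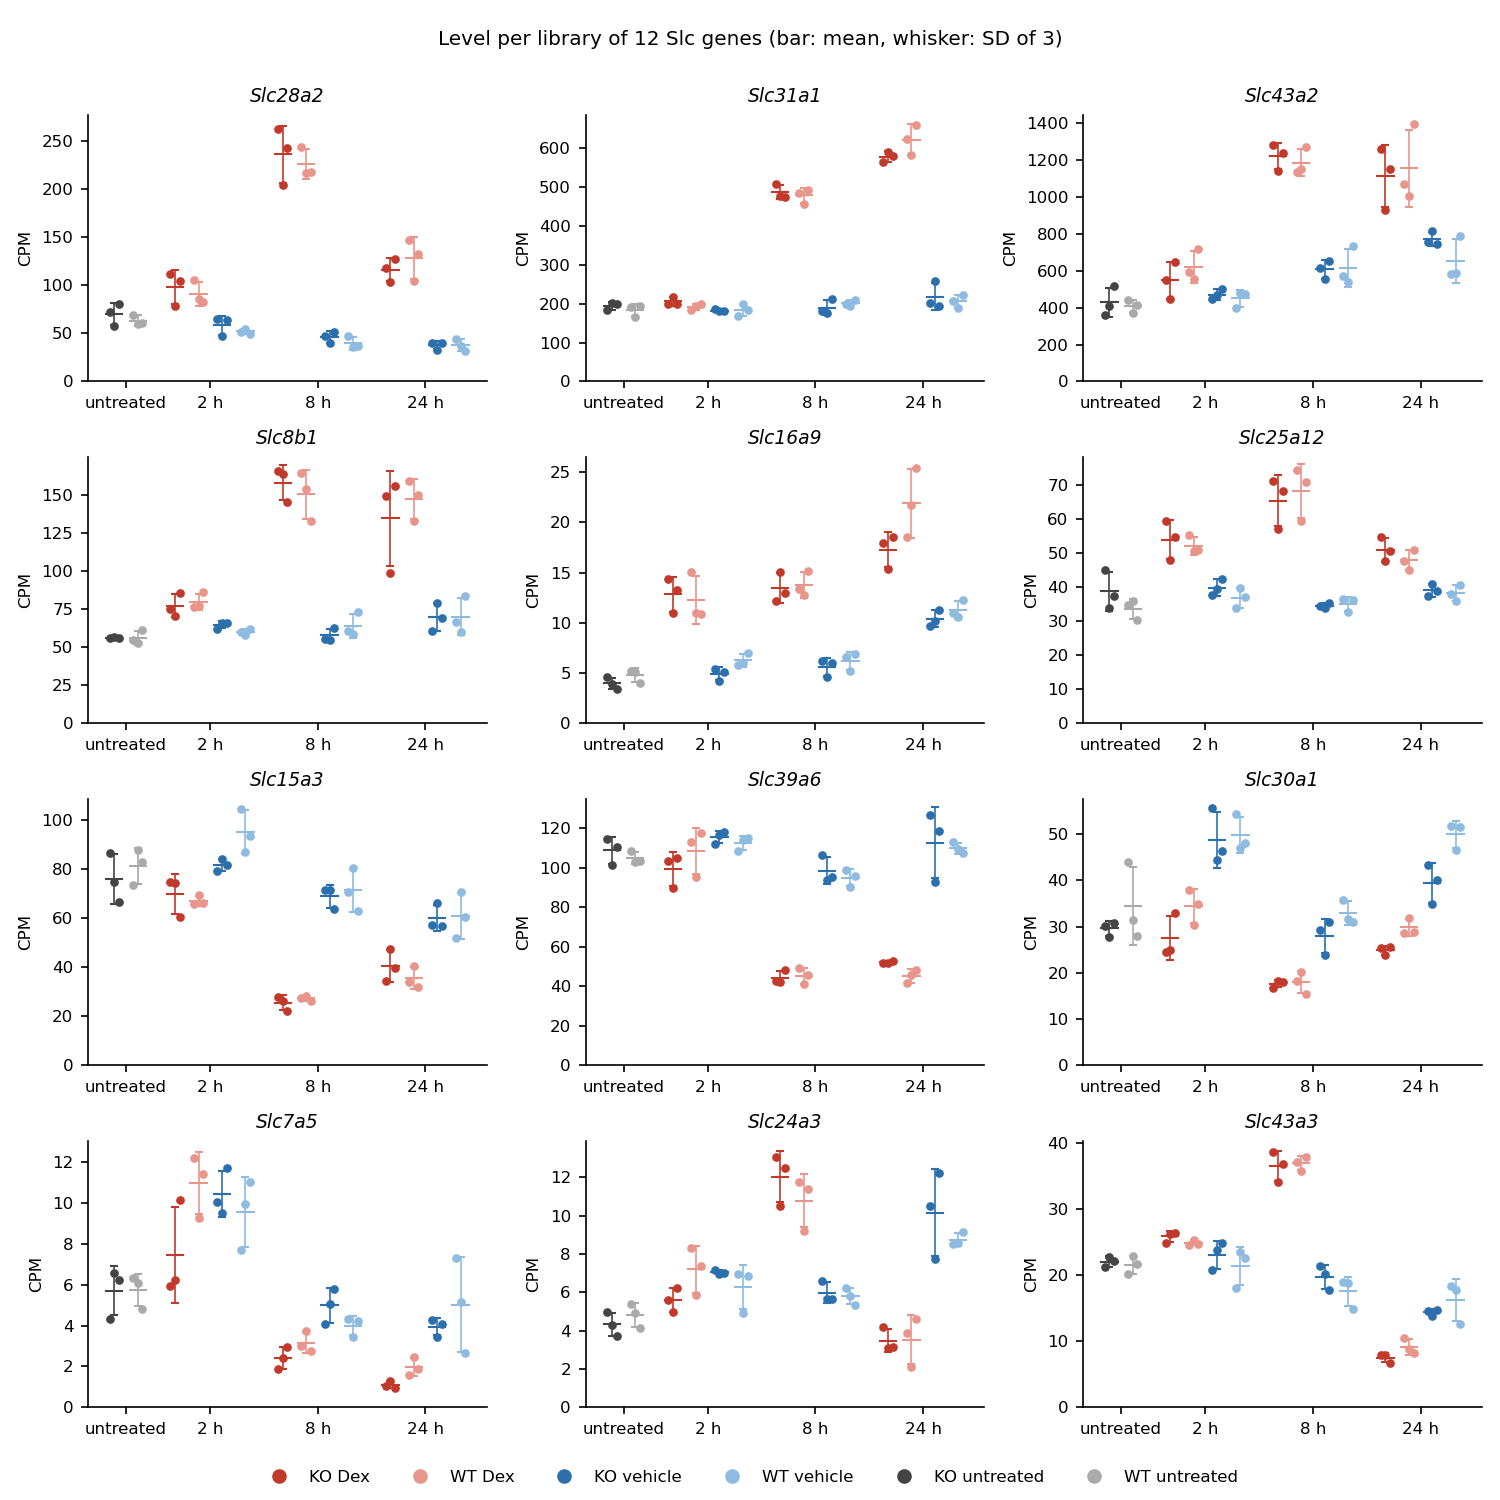
Level in CPM (vertical axis, from 0) of 12 Slc genes in each of the 42 libraries, in untreated cells and at 2, 8 and 24 h, with KO Dex, WT Dex, KO vehicle and WT vehicle from left to right at each time; points are libraries, bars means and whiskers SDs of 3. Slc43a3 Dex libraries lie above vehicle at 8 h and below it at 24 h, and Slc31a1 Dex libraries lie at 564 to 661 CPM at 24 h.

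Slc genes also differed between vehicle and untreated cells. Since untreated cells were taken at 0 h alone, vehicle, handling and time in culture cannot be told apart. Against untreated cells, vehicle called 41 Slc genes at 2 h, 29 higher and 12 lower (22.2%, against 13.8% of all genes, 7.03% higher and 6.72% lower). It called 35 at 8 h, 19 higher and 16 lower (18.9%, against 18.2% of all genes, 8.49% higher and 9.66% lower), and 65 at 24 h, 38 higher and 27 lower (35.1%, against 31% of all genes, 15.6% higher and 15.4% lower). The 3 genes that rose most at 2 h carry amino acids. Slc7a5 was at 7.71, 9.99 and 11.7 CPM in vehicle and 4.32, 6.13 and 6.56 CPM in untreated cells, a change of 0.79 ± 0.17 (adjusted p = 0.00101), without overlap. Slc7a1 rose by 0.78 ± 0.13 and Slc38a2 by 0.71 ± 0.09, and none of the 3 was called at 8 or 24 h of vehicle. When each untreated or 2 h library was left out in turn, 23 of the 41 calls at 2 h were kept in every fit, and with only the compared libraries in the fit the count was 24.

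Over 24 h of vehicle, among genes of at least 5 CPM, Slc16a9, Slc24a3, Slc9a9, Slc8a1 (a sodium-calcium exchanger of the plasma membrane) and Slc43a2 rose most, and Slc2a6, Slc28a2, Slc25a22 (a mitochondrial glutamate carrier), Slc43a3 and Slc39a10 fell most. Slc28a2 was at 32.1, 38.2 and 44.5 CPM in vehicle at 24 h and 57.8, 64.9 and 80.2 CPM in untreated cells, a change of -0.82 ± 0.11, opposite to its change with Dex. Slc9a9 was at 171, 198 and 224 CPM in vehicle at 24 h and 88.1, 99.3 and 112 CPM in untreated cells, a change of 1.02 ± 0.08. The groups overlapped for neither gene.

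The KO was compared with WT in each condition and over the 4 conditions without Dex. In each of the 7 single conditions edgeR called 0 Slc genes (against 0, 0.00896, 0.00896 and 0% of all genes in untreated cells and after 2, 8 and 24 h of vehicle, and 0, 0 and 0.0448% after 2, 8 and 24 h of Dex, the last 0.0358% higher and 0.00896% lower), and DESeq2 too called 0 in each. Same-numbered replicates deviated together after 2, 8 and 24 h of vehicle and 2 h of Dex, and a fit that blocked replicate number also called 0 in each of the 7. Before adjustment, p was under 0.05 for 5, 7, 3 and 15 Slc genes in untreated cells and after 2, 8 and 24 h of vehicle, and for 15, 5 and 19 after 2, 8 and 24 h of Dex. Some genes pass that threshold where nothing differs. No such count over all genes is given here, so these counts are not read as effects of genotype. Over the 4 conditions without Dex, 1 of 185 was called (0.541%, against 0.224% of all genes, 0.116% higher and 0.108% lower). This was Slc19a2, a thiamine importer, which was higher in KO by 0.24 ± 0.05 (adjusted p = 0.0178). After 24 h of vehicle it was at 22.5, 22.8 and 24.7 CPM in KO and 18.0, 20.2 and 18.0 CPM in WT, without overlap. It was higher on average in KO in each of those 4 conditions and differed by -0.02 ± 0.09 after 8 h of Dex. With libraries summed by replicate number, 3 sets a side, the change was 0.23 with an adjusted p of 1. The call was also lost without KO vehicle 8 h replicate 1, WT vehicle 2 h replicate 3 or WT vehicle 8 h replicate 3, where the adjusted p was 0.0549 to 0.0599, and with only the compared libraries in the fit (adjusted p = 0.0704).

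The largest difference by size among the Slc genes of at least 5 CPM was that of Slc22a4, an organic cation and ergothioneine transporter. Over the 4 conditions without Dex its log2 of KO over WT was -0.57 ± 0.13 (adjusted p = 0.0578). In untreated cells it was at 60.8, 64.4 and 71.7 CPM in KO replicates 1, 2 and 3 and at 109, 65.2 and 124 CPM in WT replicates 1, 2 and 3. WT replicate 2 was the lowest of the WT libraries in all 7 conditions and lay among the KO values in each except 2 h of Dex, where it was just below them, while WT replicates 1 and 3 lay above every KO library of their condition. The nearby genes on chromosome 11, the carnitine transporter Slc22a5 and Slc22a21, had values of 0.02 ± 0.04 and -0.16 ± 0.09.

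**Figure D5:**
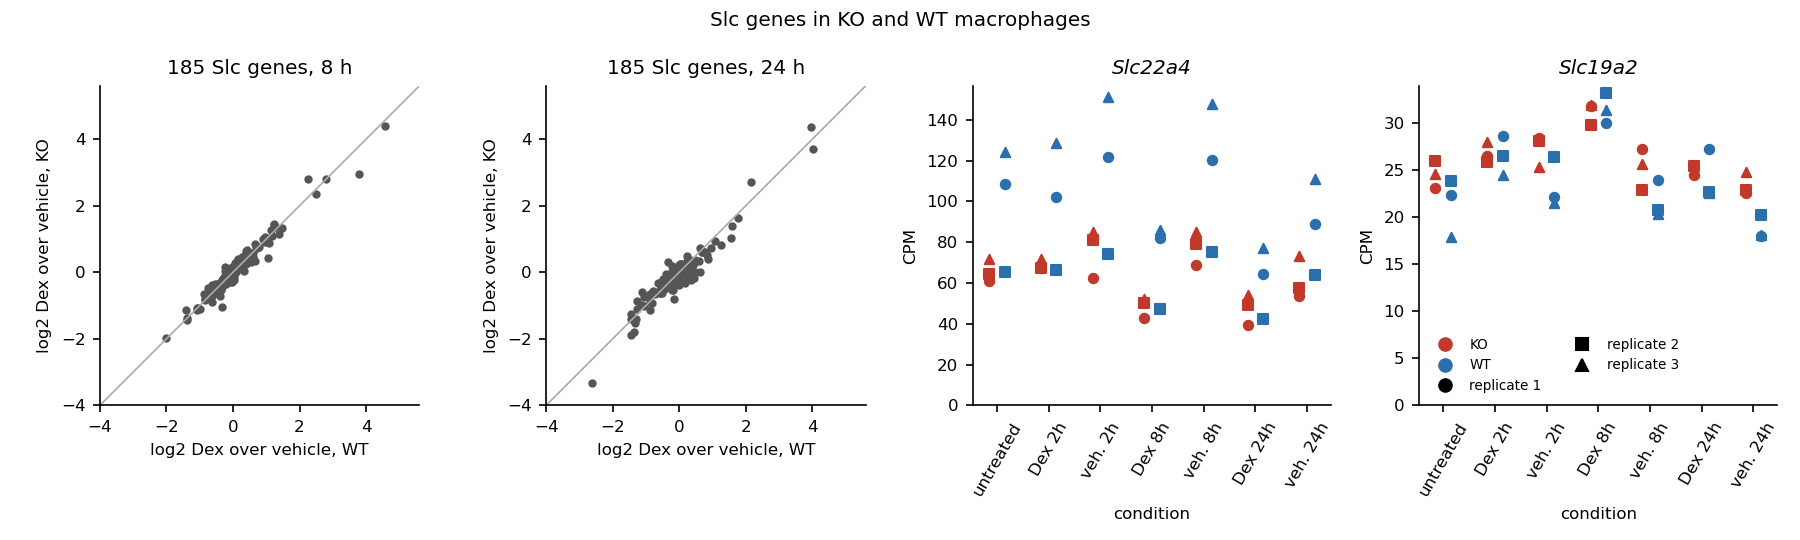
Left, log2 Dex over vehicle in KO (vertical axis) and in WT (horizontal axis) for the 185 Slc genes at 8 and 24 h, with the line of equal values. Right, CPM of Slc22a4 and Slc19a2 in each library by condition, KO red and WT blue, with a symbol for each replicate number; WT replicate 2 of Slc22a4 lies at the level of the KO libraries in each condition.

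Whether the effect of Dex differed between KO and WT was tested as an interaction, and edgeR called 0 Slc genes at 2, 8 and 24 h (against 0% of all genes at each time), as did DESeq2. Before adjustment, p was under 0.05 for 17, 2 and 10 Slc genes, again with no count over all genes beside it and not read as an effect of genotype. The effects had the same sign in KO and WT for 106 of the 185 genes at 2 h (57.3%), 166 at 8 h (89.7%) and 155 at 24 h (83.8%). Among called genes this held for all 34 at 2 h, all 114 at 8 h and 113 of 114 at 24 h. Those genes were called on the average of KO and WT, which itself favours the same sign. Over the 185 genes, the effects in KO and WT correlated with Pearson's r of 0.474 at 2 h, 0.977 at 8 h and 0.953 at 24 h, a description across genes, which are not independent and share the libraries of each genotype. For Slc28a2 at 8 h the change was 2.36 in KO and 2.51 in WT, and for Slc31a1 at 24 h it was 1.41 in KO and 1.59 in WT.

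Genes that work with the Slc proteins were read from 4 lists, chosen with earlier results known; of all genes, 27.5% were higher and 24.7% lower at 8 h, and 26.8% in each direction at 24 h. Of 13 measured accessory subunits and regulators, 9 were higher and 1 lower with Dex at 8 h, with a median change of 0.52 (0.0117 over all genes). Sgk1, a kinase that keeps many carriers at the surface, rose by 1.60 ± 0.18 at 2 h and 1.22 ± 0.17 at 8 h, Wnk1, a kinase that acts on cation-chloride cotransporters, rose by 1.57 ± 0.09 at 8 h, and Txnip, which removes glucose transporters from the surface, rose by 0.81 ± 0.08 at 8 h. Emb, an ancillary protein of monocarboxylate carriers, rose by 0.94 ± 0.09 at 8 h and 1.55 ± 0.09 at 24 h. Bsg, of the same list, was at a mean of 341 CPM in KO Dex and 330 CPM in KO vehicle at 8 h, and 336 and 331 CPM in WT. At 24 h its means were 314 and 298 CPM in KO and 297 and 290 CPM in WT. Of 21 measured transporters named otherwise, 9 were higher and 5 lower at 8 h; Npc1, which exports cholesterol from lysosomes, rose by 0.79 ± 0.06. Of 23 ABC transporters, 6 were higher and 9 lower at 8 h, and 4 higher and 11 lower at 24 h, and the efflux pump Abcb1b fell by 1.17 ± 0.07 on the log2 scale at 24 h. Of 8 ion pumps, 1 was higher at 8 h, and 2 were higher and 2 lower at 24 h; Atp2a3, a calcium pump of the endoplasmic reticulum, fell by 1.20 ± 0.08 on the log2 scale at 24 h.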

How the data were processed

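RNA of mouse bone marrow-derived macrophages was sequenced as 42 libraries in 14 groups of 3. The authors deposited expected counts per gene for 11160 genes. The submitters' processing notes name fastp, HISAT2, Salmon and the build GRCm38, with no version. The annotation was not stated there or in the labels. The deposited counts are named as filtered, but how genes were filtered was not stated in either. Rounding made these expected counts whole. A single edgeR 4.0.16 quasi-likelihood model (R 4.3.3, limma 3.58.1) with 14 group means and TMM scaling (factors 0.95 to 1.04) was fitted to all genes; filterByExpr removed 0 genes. P-values were adjusted by Benjamini-Hochberg over the 11160 genes of each comparison and called under 0.05. A standard error is the log2 change divided by the square root of F. CPM values are TMM-scaled, and CPM per kb uses merged exon lengths of GENCODE M21. Shared sequence is the share of a gene's 31-base words found in transcripts of other genes. The steps were tested on simulated data.

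Library totals of 10140211 to 33528397 set the counting precision, which is least for genes under 5 CPM. Groups, replicate numbers and times came from the labels. Samples with the same replicate number deviated together in every pair (r of 0.111 to 0.435 over 6 pairs) for Dex over vehicle, and for its difference between KO and WT, at 8 h. They did so too for KO over WT after 2 h (0.239 to 0.427), 8 h (0.229 to 0.349) and 24 h of vehicle (0.227 to 0.291) and 2 h of Dex (0.254 to 0.527), with 3 pairs each. The labels do not say what a number shares. DESeq2 1.42.0, other scaling and filters, a replicate block, fits of the compared libraries and leaving out each library were tried. The Slc genes, substrate classes and partner lists were chosen with earlier results of these data known. Genes were named by rule: the 10 highest and lowest called Dex changes at each time and the 5 highest and lowest of the vehicle and time comparisons, of at least 5 CPM, called or lowest-p genes between KO and WT, up to 3 called genes per class and direction with the most abundant member, and preset pairs. Slc15a4, Slc22a5, Slc22a21, Slc25a3, Slc25a4, Slc30a5, Slc35a3, Slc38a1, Slc44a2, Slc6a8, Slc7a7 and the genes under 5 CPM were chosen after their values were seen. Figures were drawn with matplotlib 3.10.9.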

Additional observations from a re-analysis of the deposited data

How the results depend on the processing

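Under the alternatives, no named change that was called in the main or the alternative fit changed direction. Changes of sign among uncalled ones were not counted. Of 260 named changes, 258 kept their side of the threshold with median-ratio size factors, 254 with the replicate block, 257 with DESeq2 and 248 with only the compared libraries in the fit. The filter removed 0 genes, so a fit without it is the same fit. The replicate block called 123 Slc genes for Dex over vehicle at 8 h, against 114 without it; where the numbers are not shown to pair the libraries, it called 43 at 2 h and 121 at 24 h. For KO over WT without Dex, the count of 1 became 2 with the replicate block and 2 with DESeq2, 0 with only the compared libraries and 0 with counts summed by replicate number, and 0 to 2 when each library was left out; with the block Slc22a4 had an adjusted p of 0.00241. For vehicle over untreated, only the compared libraries gave 24 Slc genes at 2 h, against 41. Leaving out each library gave 20 to 41 Slc genes for vehicle over untreated at 8 h, against 35, with 20 without KO untreated replicate 1, 22 without WT vehicle 8 h replicate 3 and 23 without KO vehicle 8 h replicate 3. It gave 28 to 34 Slc genes for Dex at 2 h, 109 to 113 at 8 h and 103 to 115 at 24 h, and 24 of 34, 103 of 114 and 96 of 114 calls were kept in every such fit. Of the Dex changes named, those of Slc17a5, Slc23a2, Slc30a4, Slc43a2, Slc7a2 and Slc20a1 at 2 h were kept in 4, 6, 4, 8, 4 and 10 of 12 such fits, those of Slc2a6, Slc44a2, Slc4a1ap and Slc5a3 at 8 h in 6, 8, 7 and 8, and those of Slc22a4, Slc35c1, Slc35f6, Slc3a2, Slc4a1ap and Slc7a6 at 24 h in 4, 10, 10, 7, 3 and 4. The cause was not tested. Genes under 5 CPM are limited by depth.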

Other observations

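Some Slc genes held a fixed place by replicate number within a genotype over all 7 conditions. KO replicate 2 had the lowest Slc28a2, by a median of -0.307 on the log2 scale from the other two KO libraries, and WT replicate 3 had the highest Slc37a2, by 0.286 from the other two WT libraries. KO replicate 1 had the highest Slc2a6, by 0.303. For Slc22a4, WT replicate 2 was lowest by -0.824 and WT replicate 3 highest by 0.557. Whether a replicate number stands for a mouse, a culture or a day is not stated in the labels.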
